A study of Mus musculus with 6 samples.

Results

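The 40 genes described here encode proteins of the mitotic spindle, the kinetochore and cytokinesis, and were chosen by their role in mitosis, with earlier results of these data known. They are 40 of 18193 genes that a probe set of the array names alone, and each was measured by the brightest of its probe sets over the 6 arrays. Total RNA of whole uteri from pregnant mice at 3.5 dpc, mated with C57BL/6 males as the methods state, was measured on Affymetrix mouse arrays, 3 for each genotype. Arid1a f/f mice carry floxed Arid1a alleles without Cre, as the methods give the genotypes, and were the controls. Arid1a d/d mice are Pgr cre/+ Arid1a f/f mice, in which Cre expressed from the Pgr locus removes Arid1a where PGR is made, and cells without PGR retain it. No array came from mice with the Pgr cre allele alone, and loss of Arid1a and that allele cannot be told apart. The labels give no age and do not state that the 3 samples of a genotype are separate mice, and a p-value here covers only the spread between these samples, which may be technical.

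At mitotic entry, cyclin B bound to CDK1 phosphorylates proteins throughout the cell, and Polo-like and Aurora kinases help to build the spindle. Kinetochores then tie chromosomes to microtubules, and the spindle checkpoint holds back the anaphase-promoting complex (APC/C) until every chromosome is attached. In the mouse uterus at 3.5 dpc, epithelial cells have largely stopped dividing under progesterone while stromal cells proliferate, and the study asked how proliferation at this time differs without Arid1a. Arid1a, the deleted gene, had intensities of 83.6, 86.8 and 104 in Arid1a f/f replicates 1, 2 and 3 and 51.9, 51.9 and 58.1 in Arid1a d/d replicates 1, 2 and 3. Its Arid1a d/d arrays all lay below the Arid1a f/f arrays (log2 fold change -0.76, standard error 0.12, adjusted p = 0.0120, limma). The position of this probe set relative to the deleted part was not analysed here. The median intensity of all probe sets was 3.05 to 3.17 on the 6 arrays, and all 11 defining genes of uterus that were checked, such as Pgr and Esr1, had group means above the median of all intensities, 3.12. Pearson correlations of log2 intensity between arrays were 0.992 for each pair of control arrays and 0.990 to 0.992 for pairs of Arid1a d/d arrays.

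Mitotic genes were higher in uteri in which Arid1a was deleted. Of the 40 genes, 22 rose and 0 fell at an adjusted p under 0.05 (limma, Benjamini-Hochberg across the whole table), while 3.37% of all 18193 genes measured in the same way rose and 4.06% fell. At an unadjusted p under 0.05 in limma, 35 of the 40 were higher and 0 lower, against 2075 and 2452 of all 18193 genes. The log2 fold change was above 0 for 40 of 40, from 0.21 for Cdc25c to 1.35 for Mad2l1, against 46.5% of all genes. The median was 0.78, whereas the median over all genes was -0.018. Every Arid1a d/d array was above every Arid1a f/f array for 31 of the 40, against 13.4% of all genes, and below every Arid1a f/f array for 0, against 16.0%. The ratio of mean intensities was at least 1.5 for 28 of the 40, and for 3.96% of all genes and 3.02% of all probe sets. More dividing cells and more transcript in each dividing cell cannot be told apart in RNA of a whole uterus. The plot of fold changes by role shows each gene with its interval. The number of genes that passed depended on the arrays in the fit. It was 29, 3 and 3 when Arid1a f/f replicates 1, 2 and 3 were left out in turn, and 12, 6 and 6 for Arid1a d/d replicates 1, 2 and 3, while the median log2 fold change stayed between 0.65 and 0.95 and 0 genes fell in any of these fits. Over all 45037 probe sets, 1090 (2.42%) rose and 1057 (2.35%) fell, and 241 to 941 rose when an array was left out.

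**Figure D1:**
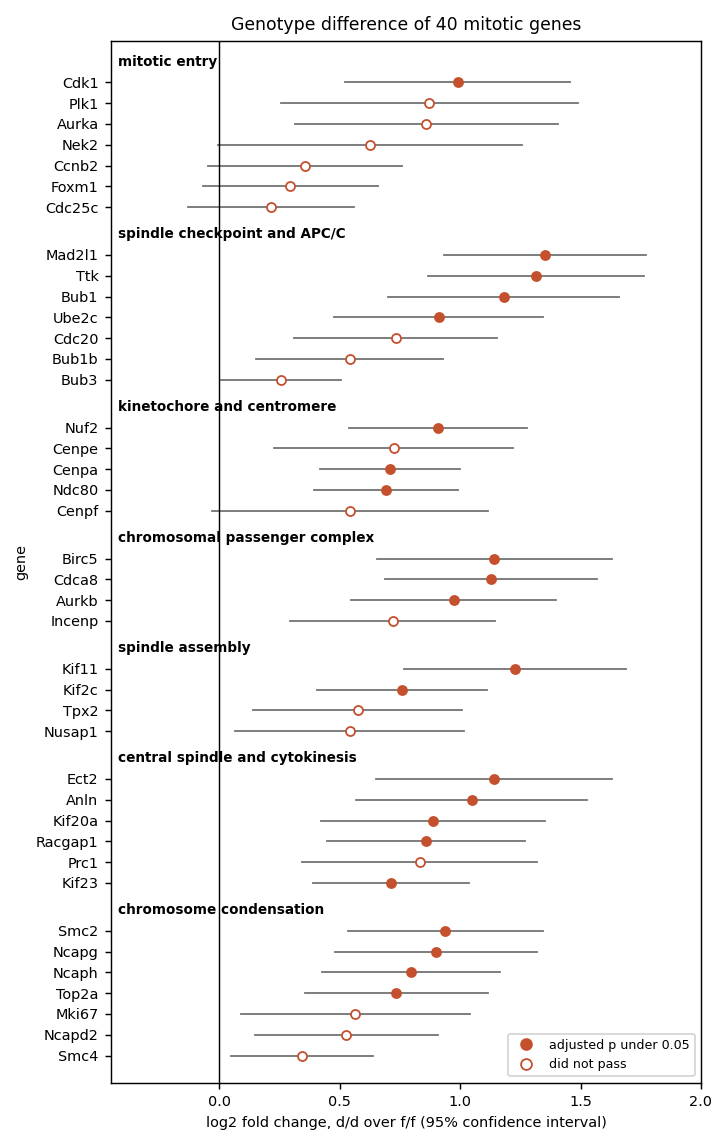
Log2 fold change of Arid1a d/d over Arid1a f/f uteri (horizontal axis) for the 40 mitotic genes, grouped by role, from 3 arrays per genotype. Points are limma estimates with 95% confidence intervals, filled where the adjusted p is under 0.05, and all 40 lie to the right of 0, with 22 filled.

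Promoter sequence was examined next, because genes of late cell cycle often share a cell cycle homology region (CHR) element, which is bound by the MuvB complexes, together with CCAAT boxes, which are bound by NF-Y. RefSeq promoter windows of build GRCm38.p6, from 250 bases before to 50 bases after the transcription start, were matched for 33 of the 40 genes. They gave 36 windows, since Bub3, Ect2 and Prc1 have a pair of overlapping windows each. Windows were searched on both strands for the CHR element, spelled TTTGAA or else spelled TTCGAA, for the CCAAT box, which is these letters themselves, and for an E2F core, spelled TTCCCGC in its first form, or spelled TTGGCGC in another, or spelled TTCGCGC in a last form. A CHR element was found in 29 of 36 windows (80.6%), against 19.2% of all 32851 windows, and a CCAAT box in 28 of 36 (77.8%), against 37.4% of all windows. At least 2 CCAAT boxes were found in 18 of the 36 windows and in 11.7% of all windows. Both a CHR element and a CCAAT box were in 72.2% of the windows of mitotic genes and 7.5% of all windows. A CHR element within 50 bases of the start was in 69.4% and 5.3%, respectively. The E2F core was in 19.4% of these windows and 8.1% of all windows. In 39 windows of S phase genes a CHR element was in 25.6%, a CCAAT box in 51.3% and an E2F core in 56.4%. In 109 windows of the other mitotic genes described below, a CHR element was in 43.1%, a CCAAT box in 56.9% and both in 27.5%. A CHR element within 50 bases of the start was in 32.1% of these 109 windows and an E2F core in 26.6%. A CHR element was in 17 of 21 windows of genes that rose and 12 of 15 windows of genes that did not pass. A CCAAT box overlapped another of these motifs in 3 of the 36 windows. These matches describe letters in a window, and binding was not measured.

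The promoters below are written 5′ to 3′ along the gene, with CHR and CCAAT matches on either strand in capitals and the transcription start after 250 bases. Cdca8, Cenpa, Kif23 and Bub1 rose and have a CHR match within 50 bases of the start. In Cdca8 the CHR match shares its last base with a CCAAT match on the other strand. Ccnb2 also has a CHR match there and did not pass the test, and Mad2l1, with the largest fold change of the 40, has neither motif in its window.
Cdca8 (chr4:124936868-124937167, reverse strand): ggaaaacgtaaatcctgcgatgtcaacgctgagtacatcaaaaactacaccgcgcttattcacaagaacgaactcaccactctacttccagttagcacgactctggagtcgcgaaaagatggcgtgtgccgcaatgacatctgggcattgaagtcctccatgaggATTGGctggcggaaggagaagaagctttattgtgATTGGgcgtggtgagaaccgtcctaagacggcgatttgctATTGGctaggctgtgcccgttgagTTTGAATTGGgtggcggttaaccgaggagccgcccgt
Cenpa (chr5:30666636-30666935, forward strand): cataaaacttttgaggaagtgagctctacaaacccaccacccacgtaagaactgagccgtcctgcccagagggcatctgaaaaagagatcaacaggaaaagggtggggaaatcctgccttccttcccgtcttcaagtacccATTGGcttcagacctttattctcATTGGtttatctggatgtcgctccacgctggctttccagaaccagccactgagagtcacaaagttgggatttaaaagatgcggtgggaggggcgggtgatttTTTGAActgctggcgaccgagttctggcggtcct
Kif23 (chr9:61946750-61947049, reverse strand): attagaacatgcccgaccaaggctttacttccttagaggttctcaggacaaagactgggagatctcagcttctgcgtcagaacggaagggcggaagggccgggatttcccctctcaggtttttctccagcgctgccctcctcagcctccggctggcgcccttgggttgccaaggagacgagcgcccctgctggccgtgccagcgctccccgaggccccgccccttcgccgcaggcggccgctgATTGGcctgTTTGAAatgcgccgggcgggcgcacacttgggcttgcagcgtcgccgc
Bub1 (chr2:127831810-127832109, reverse strand): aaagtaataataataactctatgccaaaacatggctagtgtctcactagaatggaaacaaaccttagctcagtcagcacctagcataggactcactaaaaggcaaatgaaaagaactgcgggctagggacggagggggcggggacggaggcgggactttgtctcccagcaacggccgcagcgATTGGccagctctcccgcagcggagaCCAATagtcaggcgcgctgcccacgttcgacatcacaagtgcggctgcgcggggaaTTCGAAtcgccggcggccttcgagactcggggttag
Ccnb2 (chr9:70421505-70421804, reverse strand): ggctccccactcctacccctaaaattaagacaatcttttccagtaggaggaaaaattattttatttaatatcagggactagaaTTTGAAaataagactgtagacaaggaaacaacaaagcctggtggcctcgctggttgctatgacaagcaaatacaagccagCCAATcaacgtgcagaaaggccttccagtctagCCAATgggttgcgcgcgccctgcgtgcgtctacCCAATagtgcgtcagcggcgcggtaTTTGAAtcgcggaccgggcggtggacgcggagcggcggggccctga
Mad2l1 (chr6:66534971-66535270, forward strand): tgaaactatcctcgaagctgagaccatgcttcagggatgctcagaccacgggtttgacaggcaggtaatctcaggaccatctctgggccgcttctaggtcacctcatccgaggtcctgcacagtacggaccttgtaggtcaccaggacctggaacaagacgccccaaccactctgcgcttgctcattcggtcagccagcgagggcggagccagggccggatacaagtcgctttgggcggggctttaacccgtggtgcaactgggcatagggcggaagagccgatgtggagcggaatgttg

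**Figure D2:**
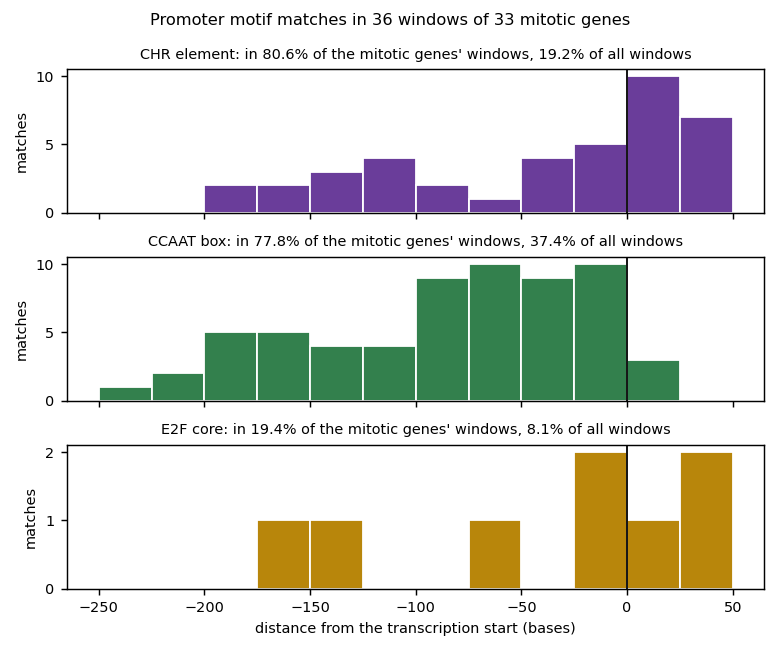
Number of CHR, CCAAT and E2F core matches (vertical axes) by distance of the match centre from the transcription start in bases (horizontal axis) in 36 promoter windows of 33 mitotic genes, in bins of equal width. CHR matches are most frequent in the bins just after the start and CCAAT matches in those before it, and E2F core matches are few; the overlapping windows of Bub3, Ect2 and Prc1 are all counted.

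Of 7 genes of mitotic entry, 1 rose, 6 did not pass and the median log2 fold change was 0.63. Cdk1, the kinase that drives entry into mitosis, had intensities of 61.5, 33.9 and 41.8 in Arid1a f/f replicates 1, 2 and 3 and 77.4, 100.4 and 87.7 in Arid1a d/d replicates 1, 2 and 3. The genotypes did not overlap (log2 fold change 0.99, standard error 0.21, adjusted p = 0.0319, limma), but Cdk1 passed in only 1 of the 6 fits that left out 1 array. Plk1, the Polo-like kinase, had 33.1, 15.8 and 15.5 against 31.5, 42.1 and 37.5 in the same order. Its Arid1a f/f replicate 1 was higher than Arid1a d/d replicate 1, and Plk1 did not pass (log2 fold change 0.87, standard error 0.27, adjusted p = 0.118, limma). Nek2, a centrosomal kinase, had 15.5, 6.39 and 9.94 against 13.8, 18.2 and 14.3. Its Arid1a f/f replicate 1 was above Arid1a d/d replicates 1 and 3, and Nek2 did not pass (log2 fold change 0.63, standard error 0.28, adjusted p = 0.274, limma). Aurka, which encodes Aurora A of the spindle poles, differed by 0.86 on the log2 scale (adjusted p = 0.0852, limma). Ccnb2, a B-type cyclin gene, had 0.35 (adjusted p = 0.341, limma), and Foxm1, which encodes a transcription factor of late cell cycle genes, had 0.29 (adjusted p = 0.386, limma). Cdc25c, a phosphatase that activates CDK1, had 3.41, 2.56 and 2.68 against 2.81, 3.41 and 3.81. Its Arid1a f/f mean was below the median of all intensities, and it did not pass (log2 fold change 0.21, adjusted p = 0.531, limma). In this role 6 of 7 genes had arrays that overlapped between genotypes.

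Of 7 genes of the spindle checkpoint and the APC/C, 4 rose, 3 did not pass and the median log2 fold change was 0.91. Mad2l1 encodes MAD2, the checkpoint protein that binds and restrains CDC20. It had intensities of 41.97, 28.0 and 28.8 in Arid1a f/f replicates 1, 2 and 3 and 77.2, 101 and 72.0 in Arid1a d/d replicates 1, 2 and 3. The lowest Arid1a d/d array was far above the highest Arid1a f/f array (log2 fold change 1.35, standard error 0.19, adjusted p = 0.00802, limma), and Mad2l1 was the only member that passed in all 6 fits that left out 1 array. Ttk, the checkpoint kinase also called MPS1, had 5.36, 3.37 and 3.42 against 9.04, 8.81 and 11.9. Its genotypes did not overlap either (log2 fold change 1.31, standard error 0.20, adjusted p = 0.0112, limma), and it lost the call only without Arid1a f/f replicate 2. Bub1, a kinetochore kinase of the checkpoint, rose by 1.18 on the log2 scale (standard error 0.21, adjusted p = 0.0195, limma). Ube2c, the ubiquitin-conjugating enzyme of the APC/C, rose by 0.91 on the log2 scale (adjusted p = 0.0333, limma). Cdc20, the activator of the APC/C, had 0.73 (adjusted p = 0.0627, limma) and Bub1b, which encodes BUBR1, had 0.54 (adjusted p = 0.122, limma), and neither passed although the arrays of the genotypes did not overlap. Bub3, the binding partner of BUB1 and BUBR1, had 216, 193 and 215 against 222, 257 and 267. Its difference was small (log2 fold change 0.26, standard error 0.11, adjusted p = 0.258, limma), and a second Bub3 probe set, also brighter than the median of all probe sets, had -0.0095.

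Of 5 genes of the kinetochore and centromere, 3 rose, 2 did not pass and the median log2 fold change was 0.71. Nuf2, a subunit of the NDC80 complex that holds microtubules, had intensities of 17.7, 12.8 and 12.9 in Arid1a f/f replicates 1, 2 and 3 and 30.6, 22.4 and 28.2 in Arid1a d/d replicates 1, 2 and 3 (log2 fold change 0.91, standard error 0.16, adjusted p = 0.0196, limma). Cenpa, which encodes the histone variant of centromeres, had 32.3, 27.0 and 34.9 against 47.9, 48.2 and 57.1 (log2 fold change 0.71, standard error 0.13, adjusted p = 0.0202, limma). Neither gene overlapped between genotypes, and Cenpa was the only one of the 40 on which Arid1a f/f replicate 1 was not the highest control array. Ndc80, the partner of NUF2, rose by 0.69 on the log2 scale (adjusted p = 0.0237, limma). Its control intensities were low, 3.74, 3.01 and 3.11, near the median of all intensities, 3.12. Cenpe, a kinetochore kinesin gene, had 0.72 (adjusted p = 0.107, limma). Cenpf, which encodes a large kinetochore protein, had 32.4, 15.3 and 18.2 against 32.6, 25.6 and 33.4. On Cenpf, Arid1a f/f replicate 1 was above Arid1a d/d replicate 2, and the gene did not pass (log2 fold change 0.54, standard error 0.25, adjusted p = 0.299, limma).

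Of the 4 subunits of the chromosomal passenger complex, 3 rose, 1 did not pass and the median log2 fold change was 1.05. Cdca8, which encodes borealin, had intensities of 57.4, 34.0 and 38.2 in Arid1a f/f replicates 1, 2 and 3 and 81.3, 106 and 90.1 in Arid1a d/d replicates 1, 2 and 3 (log2 fold change 1.13, standard error 0.19, adjusted p = 0.0170, limma). Of its dimmer probe sets, 1 rose by 1.06 (adjusted p = 0.0324, limma) and another did not pass (0.86, adjusted p = 0.106, limma). Birc5, which encodes survivin, had 46.0, 25.5 and 30.2 against 60.8, 73.6 and 85.3 (log2 fold change 1.14, standard error 0.21, adjusted p = 0.0231, limma). Aurkb, the Aurora B kinase of the complex, rose by 0.97 on the log2 scale (adjusted p = 0.0250, limma), and its second probe set rose by 1.20 (adjusted p = 0.00997, limma). Incenp, the scaffold of the complex, had 84.0, 48.7 and 57.6 against 91.9, 106 and 108. All 4 subunits had every Arid1a d/d array above every Arid1a f/f array, and Incenp did not pass on its brightest probe set (log2 fold change 0.72, standard error 0.19, adjusted p = 0.0680, limma) but rose by 0.91 on another (adjusted p = 0.0243, limma).

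Of 4 genes of spindle assembly, 2 rose, 2 did not pass and the median log2 fold change was 0.67. Kif11, the kinesin that pushes spindle poles apart, had intensities of 10.3, 5.53 and 7.15 in Arid1a f/f replicates 1, 2 and 3 and 15.6, 18.7 and 17.9 in Arid1a d/d replicates 1, 2 and 3 (log2 fold change 1.23, standard error 0.20, adjusted p = 0.0150, limma). Kif2c, a kinesin that depolymerises microtubules, had 21.0, 14.2 and 14.8 against 26.6, 26.6 and 30.1 (log2 fold change 0.76, standard error 0.16, adjusted p = 0.0309, limma). Both had no overlap between genotypes, and Kif11 lost its call only without Arid1a f/f replicate 3. On the next brightest probe set, Kif11 had 0.80 (adjusted p = 0.0917, limma) and Kif2c had 0.17 (adjusted p = 0.607, limma), and neither passed. Nusap1, a microtubule-bundling protein gene, had 28.9, 14.9 and 21.8 against 30.6, 32.7 and 29.0 and did not pass (log2 fold change 0.54, standard error 0.21, adjusted p = 0.206, limma). Tpx2, the activator of Aurora A on the spindle, had 0.57 (adjusted p = 0.141, limma), while a dimmer probe set rose by 0.77 (adjusted p = 0.0374, limma).

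Of 6 genes of the central spindle and cytokinesis, 5 rose, 1 did not pass and the median log2 fold change was 0.87. Ect2, the exchange factor that activates RhoA at the cleavage furrow, had intensities of 20.7, 11.6 and 14.5 in Arid1a f/f replicates 1, 2 and 3 and 30.4, 41.6 and 29.5 in Arid1a d/d replicates 1, 2 and 3 (log2 fold change 1.14, standard error 0.22, adjusted p = 0.0237, limma). Kif23, a kinesin of the centralspindlin complex, had 21.4, 15.7 and 15.6 against 25.7, 30.4 and 29.6 (log2 fold change 0.71, standard error 0.14, adjusted p = 0.0289, limma). The arrays of the genotypes did not overlap for any of these genes. Racgap1, the partner of KIF23 in centralspindlin, rose by 0.86 on the log2 scale (adjusted p = 0.0336, limma), Anln, which encodes the furrow protein anillin, by 1.05 (adjusted p = 0.0292, limma) and the kinesin gene Kif20a by 0.89 (adjusted p = 0.0460, limma). A dimmer Racgap1 probe set overlapped between genotypes and did not pass (log2 fold change 0.60, adjusted p = 0.271, limma). Prc1, which bundles microtubules of the central spindle, had 56.2, 32.2 and 34.1 against 60.3, 69.0 and 83.6. It did not pass on its brightest probe set (log2 fold change 0.83, standard error 0.22, adjusted p = 0.0669, limma) and rose by 0.85 on another (adjusted p = 0.0210, limma).

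Of 7 genes of chromosome condensation, 4 rose, 3 did not pass and the median log2 fold change was 0.73. Smc2, a core subunit of condensin, had intensities of 48.8, 29.7 and 43.4 in Arid1a f/f replicates 1, 2 and 3 and 69.6, 75.8 and 83.7 in Arid1a d/d replicates 1, 2 and 3 (log2 fold change 0.94, standard error 0.18, adjusted p = 0.0241, limma). Ncaph, the kleisin subunit of condensin I, had 30.8, 20.2 and 28.7 against 41.4, 45.5 and 49.4 (log2 fold change 0.79, standard error 0.16, adjusted p = 0.0310, limma). Neither gene overlapped between genotypes on these probe sets. A dimmer Ncaph probe set did overlap and did not pass (log2 fold change 0.38, adjusted p = 0.190, limma). Ncapg, another condensin I subunit, rose by 0.90 on the log2 scale (adjusted p = 0.0310, limma), and Top2a, the topoisomerase that untangles chromosomes, rose by 0.73 (adjusted p = 0.0436, limma). Ncapd2, a further condensin I subunit, had 0.53 (adjusted p = 0.123, limma). Smc4, the partner of SMC2, had 87.4, 66.7 and 73.8 against 90.9, 89.8 and 107 (log2 fold change 0.34, standard error 0.13, adjusted p = 0.197, limma), and 1 of its dimmer probe sets rose by 1.06 (adjusted p = 0.0363, limma). Mki67, which encodes the proliferation marker Ki67, had 155, 83.9 and 98.0 against 151, 151 and 181. On Mki67, Arid1a f/f replicate 1 was above Arid1a d/d replicates 1 and 2, and the gene did not pass (log2 fold change 0.56, standard error 0.21, adjusted p = 0.187, limma).

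**Figure D3:**
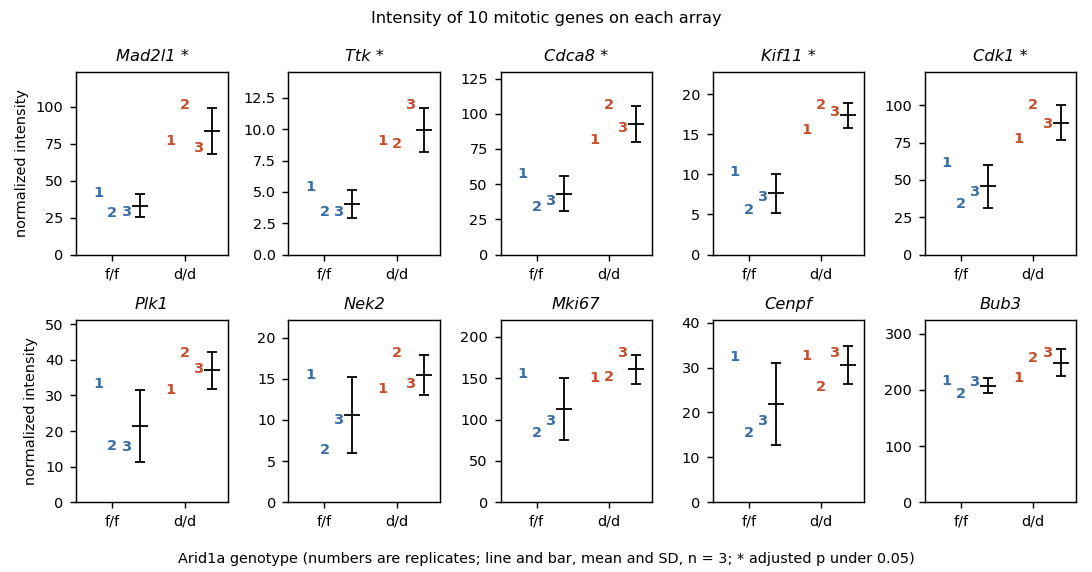
Normalized intensity (vertical axes, from 0) of 10 of the 40 genes in uteri of each genotype, with each replicate drawn as its number and the mean and SD of 3 arrays beside it. Arid1a f/f replicate 1 reaches the Arid1a d/d values for Plk1, Nek2, Mki67 and Cenpf but not for Mad2l1, Ttk, Cdca8, Kif11, Cdk1 or Bub3.

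The calls by role rested on few arrays too. Over the 6 fits that left out 1 array, the number of genes that rose was 0 to 2 for mitotic entry, 1 to 6 for the checkpoint and APC/C, 0 to 3 for the kinetochore, 0 to 4 for the passenger complex, 0 to 2 for spindle assembly, 0 to 6 for cytokinesis and 0 to 6 for condensation. The highest number came without Arid1a f/f replicate 1 in each role, and the lowest without Arid1a f/f replicate 2 or 3, shared in 3 of the roles with 1 or both of Arid1a d/d replicates 2 and 3. Of the 22 genes that rose, 21 lost the call in at least 1 of these fits. Differences between roles were not tested.

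The 40 genes also varied together among the control arrays. Arid1a f/f replicate 1 had the highest control intensity for 39 of the 40, while it was the highest of 3 for 34.4% of all genes. The lowest control was Arid1a f/f replicate 2 for 35 of the 40, and for 6603 of all 18193 genes. The median of the 40 genes, as log2 intensity minus the mean of the gene in Arid1a f/f mice, was 0.43, -0.30 and -0.11 in Arid1a f/f replicates 1, 2 and 3, and 0.64, 0.80 and 0.88 in Arid1a d/d replicates 1, 2 and 3. The range among the Arid1a f/f arrays had a median of 0.72 on the log2 scale over the 40 genes and 0.24 over all genes, while among the Arid1a d/d arrays it was 0.30 and 0.27. For 23 of the 40 genes the log2 fold change between genotypes was larger than the range among the Arid1a f/f arrays. The share of all genes for which this held was not computed, so the count has no background beside it. Every Arid1a d/d array was above both Arid1a f/f replicates 2 and 3 for 40 of 40 genes, against 17.4% of all genes, so that the 9 genes with overlap overlapped through Arid1a f/f replicate 1 alone. Among the Arid1a d/d arrays the order was shared in part, with replicate 3 the highest for 21 genes, replicate 2 for 15 and replicate 1 for 4. The lowest was replicate 1 for 24, replicate 2 for 11 and replicate 3 for 5. Over all 18193 genes, replicate 3 was the highest Arid1a d/d array for 6882 and replicate 1 the lowest for 7253. Replicate 1 was also the lowest Arid1a d/d array for 73 of 111 other mitotic genes and 31 of 39 S phase genes. This pattern was noticed in the values and is given as a description.

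**Figure D4:**
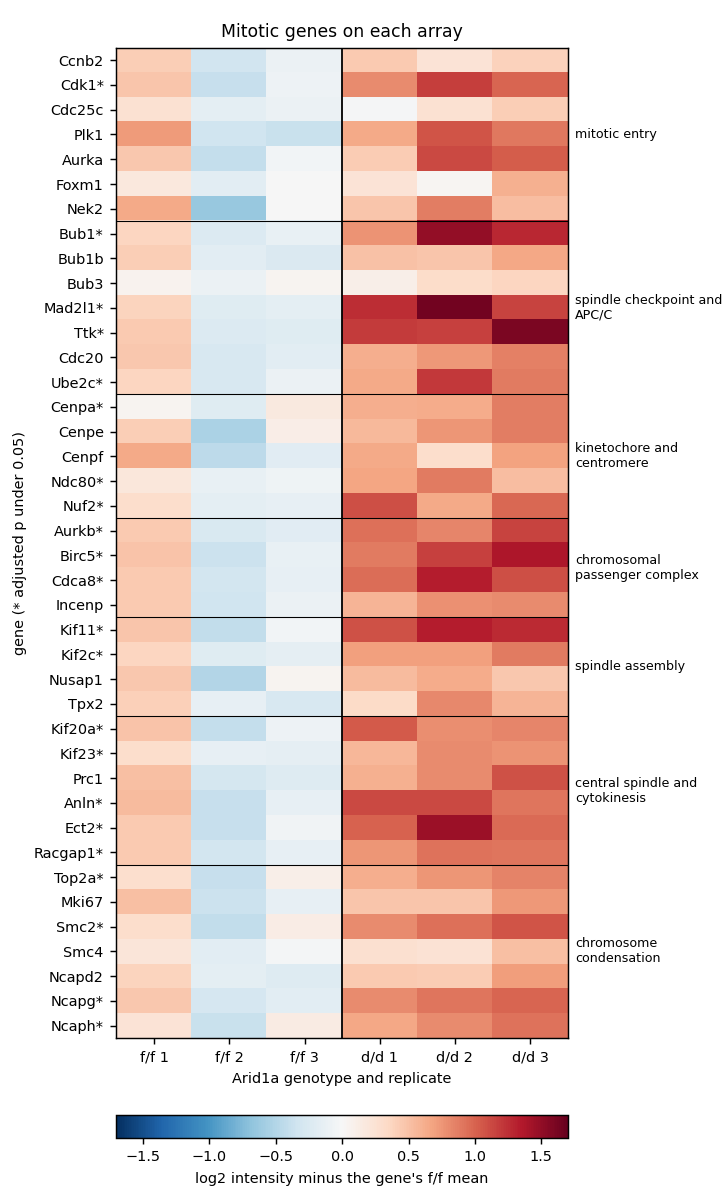
Log2 intensity of the 40 genes (rows, by role) on the 6 arrays (columns), each as its difference from the mean of that gene in Arid1a f/f mice, with red for higher and blue for lower values. Arid1a f/f replicate 1 is red and Arid1a f/f replicate 2 blue for nearly every gene, and the Arid1a d/d arrays are red except for Cdc25c on replicate 1, which is just below 0.

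Other genes of mitosis followed in part. Of 111 measured genes from a list of 113 that left out the 40, 36 rose and 1 fell (limma), and their log2 fold changes had a median of 0.47. The count that rose was 5 and 6 when Arid1a f/f replicates 2 and 3 were left out in turn and 17 and 12 for Arid1a d/d replicates 2 and 3, and 0 fell in any fit without 1 array. Trip13, an ATPase that remodels MAD2, had the smallest adjusted p, with intensities of 18.6, 12.6 and 11.5 in Arid1a f/f replicates 1, 2 and 3 and 32.9, 37.4 and 36.5 in Arid1a d/d replicates 1, 2 and 3 (log2 fold change 1.35, standard error 0.17, adjusted p = 0.00595, limma). It did not overlap between genotypes. Fbxo5, which encodes the APC/C inhibitor EMI1, rose by 0.92 on the log2 scale, the chromatin protein gene Hmgb2 by 1.00, Plk4, the kinase of centriole duplication, by 0.91 and the CDK-binding gene Cks1b by 0.95. Haus8, a subunit of the augmin complex that nucleates spindle microtubules, was the gene that fell, at -0.57 (adjusted p = 0.0463, limma). Within this list, 10 of 18 genes of entry, exit and MuvB with its partners rose and 5 of 9 of condensation, as did 7 of 28 of the kinetochore, 9 of 31 of the spindle and cytokinesis and 5 of 25 of the checkpoint, APC/C and cohesion release. Of the MuvB genes on the list, Lin54 rose, and Lin9, Lin37 and Lin52 did not pass. The highest control array was Arid1a f/f replicate 1 for 69 of the 111.

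Genes of S phase, which precedes mitosis, were measured beside them. Of 39 measured, 27 rose and 0 fell at an adjusted p under 0.05 (limma), and the median log2 fold change was 0.86. At an unadjusted p under 0.05 in limma, 38 were higher and 0 lower, against 2075 and 2452 of all 18193 genes. The number of S phase genes that rose was 3 and 9 when Arid1a f/f replicates 2 and 3 were dropped in turn. It was 14 and 12 for Arid1a d/d replicates 2 and 3. The highest control was replicate 1 for 35 of the 39 in this list. Whether S phase and mitotic genes differ in the size of their change was not tested. The plot of medians by array shows these lists beside all genes.

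**Figure D5:**
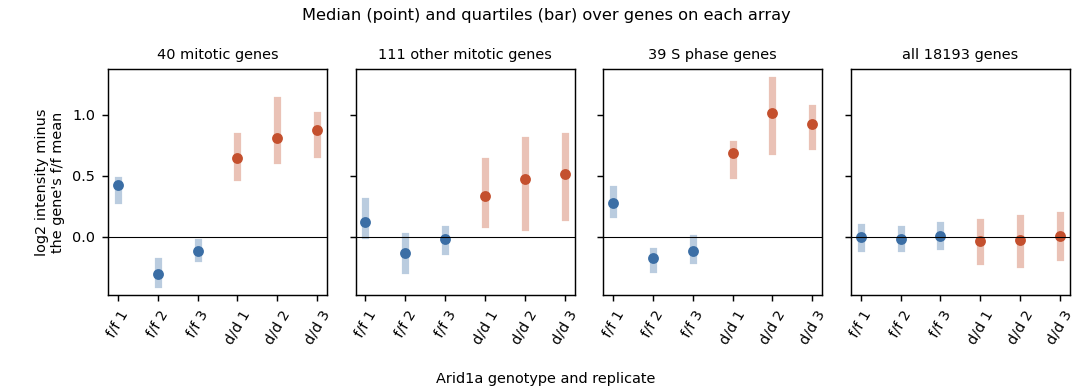
Median (point) and quartiles (bar) over the genes of each list of log2 intensity minus the mean of the gene in Arid1a f/f mice (vertical axis), on each of the 6 arrays (horizontal axis). In the 40 mitotic genes and the 39 S phase genes, Arid1a f/f replicate 1 lies between the other Arid1a f/f arrays and the Arid1a d/d arrays, while all 18193 genes stay near 0.

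Markers of the cell types of the uterus moved with genotype in the same RNA. Of 14 epithelial markers, 2 rose and 0 fell (limma), and the median on the log2 scale was 0.67. At an unadjusted p under 0.05 in limma, 8 of the 14 were higher and 1 lower, against 2075 and 2452 of all 18193 genes. The number of these markers that rose was 0 to 3 when 1 array was left out, with 0 without Arid1a f/f replicate 2. Their intensities summed to 1403 to 1425 in controls and 1367, 2622 and 1829 in Arid1a d/d replicates 1, 2 and 3. The median over the 14 markers of log2 intensity minus the mean in Arid1a f/f mice was -0.019, 0.053 and -0.024 in controls and 0.19, 1.08 and 0.56 in the Arid1a d/d arrays, in the same order. The sum and the median thus order Arid1a d/d replicate 1 differently against the controls. The intensities of the 40 mitotic genes summed to 1116 to 1737 in controls and 2048 to 2363 in Arid1a d/d mice. Of 12 endothelial markers, 10 fell, with a median of -1.0 and sums of 722 to 732 in Arid1a f/f and 365 to 407 in Arid1a d/d mice, and 6 fell without Arid1a f/f replicate 2 or 3. Of 12 stromal fibroblast markers 2 fell, of 12 smooth muscle markers 1 fell and of 11 leukocyte markers 2 fell, with sums of 10641 to 11924 against 8288 to 9746, 7764 to 8850 against 7000 to 8398, and 351 to 460.4 against 245 to 290. At an unadjusted p under 0.05 in limma, 8, 4 and 5 of these markers were lower and 0, 0 and 1 higher, in the same order. Their median log2 fold changes were -0.44, -0.25 and -0.30. The leukocyte markers that fell numbered 0 whichever control array was dropped. Of the defining markers, Krt8 (log2 fold change 0.77, adjusted p = 0.0953, limma), Krt18 (0.14) and Epcam (0.40) of epithelium did not pass, while Pecam1 of endothelium fell (-1.33, adjusted p = 0.0113, limma) and so did Ptprc of leukocytes (-0.80, adjusted p = 0.0320, limma). The part of these cell types in the differences of the mitotic genes was not tested. Arid1a f/f replicate 1, on which the mitotic genes were high among controls, was the highest control for 10 of 12 smooth muscle markers and 3 of 14 epithelial markers. Of 12 markers of the early embryo, 1 rose (Elf5, log2 fold change 0.83, adjusted p = 0.0323, limma) and 0 fell. At an unadjusted p under 0.05 in limma, 1 was higher and 2 lower, beside the counts over all genes given above. Elf5 was dim, at 2.47, 2.47 and 2.66 in Arid1a f/f and 4.26, 3.59 and 6.01 in Arid1a d/d replicates 1, 2 and 3. Its Arid1a f/f mean was below the median of all intensities, 3.12. Of the 12, 9 had a group mean below the median of all intensities, the defining markers Cdx2 and Pou5f1 among them at 1.81 to 2.78, and their sum was 46.5 to 48.3 in Arid1a f/f and 41.0 to 45.8 in Arid1a d/d mice.

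The 40 genes have 96 probe sets that name them alone, and 11 genes have only 1. Of the 56 probe sets that were not the brightest, 28 had a mean above the median of all probe sets, and 9 of these rose, 0 fell and 25 had a log2 fold change above 0, with a median of 0.64. Of the other 28, 0 rose and 0 fell (limma), with a median of 0.030. At an unadjusted p under 0.05 in limma, 2 of these 28 were higher and 3 lower, against 4177 and 4156 of all 45037 probe sets. The 9 that rose belong to Aurkb, Top2a, Smc2, Prc1, Cenpe, Incenp, Cdca8, Smc4 and Tpx2, of which Prc1, Cenpe, Incenp, Smc4 and Tpx2 did not pass on the brightest probe set. Others above the median of all probe sets did not pass. They include probe sets of Anln, Cdca8, Cenpa, Kif11, Kif2c, Ncaph, Racgap1 and Smc2, which rose on the brightest. The brightest probe set of 19 of the 40 genes carries an _s_at, _x_at or _a_at ending, which marks probe sets that can detect several transcripts, and 13 of these 19 rose, as did 9 of the other 21.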

How the data were processed

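RNA of whole uteri was measured on 6 arrays, 3 per genotype, grouped by the sample titles. The authors made the deposited intensities with RMA (named in the submitters' processing notes, version not stated there) and global scaling. They are linear, from 1.29 to 4479, and were put on the log2 scale here. The methods name a common trimmed mean per array and log values as their scale. The deposited table is linear and its mean, with 2% of each tail trimmed, was 16.4 to 17.2, which is not the target they state. All 45037 probe sets entered the fit, dim ones too. Detection calls were not used here, and the number of arrays sets the precision.

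By the platform annotation, 34945 probe sets name a single gene, 932 more than 1 and 9160 none here. Genotype was tested two-sided by lmFit and eBayes of limma 3.58.1 (R 4.3.3), with Benjamini-Hochberg adjustment across the whole table. The fit was tried on simulated data in which each probe set varied independently. Those data lack the variation that the mitotic genes share among arrays, so the trial cannot show how secure their calls are. The members and lists were chosen with earlier results of these data known. All 40 genes are named. Values on each array are given for up to 2 genes past the test with the smallest adjusted p in each role and for the gene that did not pass with the largest unadjusted p, and those of Plk1, Nek2 and Mki67 were added after their values were seen. Of the other mitotic genes, up to 5 per direction are named. Some genes of the lists are not reported here. Protein features were not analysed here. The alternatives were the replicate block, quantile normalization, median centring, a filter on dim probe sets, trend and robust options, array weights, 10 added to the intensity, other probe sets per gene, other thresholds and leaving out each array.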

Additional observations from a re-analysis of the deposited data

How the results depend on the processing

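Over the settings tried, 0 of the 40 mitotic genes fell, and the median log2 fold change was 0.53 (10 added to the intensity) to 0.95. With the replicate number as a block, 21 of the 40 rose, and 33 of the other mitotic genes. The samples share only a number (correlations of deviations of same-numbered arrays were -0.0036, 0.047 and 0.14, and not every array correlated best with its own number), and the block moved no count of mitotic genes by over 1.5 times. The number that rose was 4 with 10 added to the intensity, 1 at an adjusted p under 0.01 and 3 to 29 when 1 array was left out. Without _s_at, _x_at and _a_at probe sets, 31 of the 40 genes have a value, 11 of these 31 rose, and Bub3 turned to -0.0095. Of the other mitotic genes, 11 rose with 10 added and 1 at an adjusted p under 0.01, and 5 to 36 when 1 array was left out. The 1 that fell became 0 with array weights, with 10 added, at an adjusted p under 0.01, at a fold of at least 1.5 and whenever 1 array was left out (0 to 0). Over all probe sets, 662 rose and 620 fell with 10 added, 152 and 237 at an adjusted p under 0.01, and 241 to 941 and 337 to 878 when 1 array was left out. A pseudocount of 10 compresses the folds of dim probe sets. Fits with 1 array fewer all had equal sample numbers, but their counts for the 40 genes depended on which array was dropped. Dropping control array 1 gave 29, and dropping control array 2 or 3 gave 3. Why the counts given above moved between settings was not tested. Quantile normalization, median centring, the filter on dim probe sets and the trend and robust options changed these counts by less than 1.5 times. The count of genes without overlap, 31, was 31 to 40 when 1 array was left out, which was tried after seeing the data. Leaving out an array cannot lower this count, so its lower end was fixed in advance. The 40 came without Arid1a f/f replicate 1, where 17.4% of all genes had every Arid1a d/d array above the remaining controls.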
